A study of Mus musculus with 2 samples.

Results

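T cells and natural killer (NK) cells were sought among nuclei of the mammary fat pad of lactating mice, and 185 of the 20854 kept nuclei (0.887%) met the rule for them. The members were chosen by measured values: at least 2 of the 7 genes Cd247, Skap1, Themis, Bcl11b, Cd3e, Cd3g and Il7r with 1 or more UMIs (unique molecular identifiers, each counting 1 captured RNA molecule), and at most 1 UMI summed over Pdgfra, Pecam1, Trp63, Adipoq, F13a1 and Klra2. Nuclei were kept from 500 UMIs and 300 genes upward, with mitochondrial UMIs under 5%. The tissue was the inguinal fat pad, with lymph nodes removed, of 8 lactating dams at postnatal day 11 of their pups, from breeding cages set up with mice aged 8 weeks. The labels name 4 dams with a floxed oxytocin receptor gene (Oxtr flox) and 4 with Oxtr deleted in adipocytes (Adipo-specific Oxtr KO), and no promoter driving it is named in the labels. The hashtags, oligonucleotide labels added to nuclei before pooling, name these animals WT and KO, and WT was taken as the floxed group because no other genotype is labelled. All 8 animals were sequenced as 1 pooled library, so an animal is known only through its hashtag.

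The T cell receptor binds antigen through its variable chains, and the CD3 chains and Cd247 pass the signal on to kinases such as Lck and Zap70. NK cells lack that receptor and instead carry activating and inhibitory receptors of the killer lectin families, with granzymes as their cytotoxic load. Lymphocytes of both kinds reside in the mammary gland, among the epithelium and in the fat pad, through pregnancy and lactation.

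The pooled library held 107910356 UMIs over 21805 barcodes, each of which was also in the hashtag table. Oxtr over all singlet nuclei was between 11.96 and 21.7 CPM (UMIs of a gene over all UMIs, scaled to 1e6) in the 4 WT animals and between 14.2 and 20.4 CPM in the 4 KO animals. The deletion is labelled as restricted to adipocytes, so a sum over all nuclei does not check it. Among the members Oxtr gave 5 UMIs in all.

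The members were shallow. They had a median of 1761 UMIs (range 671 to 70080) and 972 genes, against 4370 UMIs and 1840 genes in the other 20669 kept nuclei. Their median mitochondrial share was 0.331%, against 0.140%. No hashtag was assigned to 84 members (45.4%, against 26.5% of other nuclei), more than 1 hashtag to 22 (11.9%, against 9.63%), and 6 carried the tag of a sample that the labels leave unnamed. The remaining 73 members (39.5%, against 62.6%) were assigned to the 8 animals, and only these enter the comparison of genotypes.

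At the edge of the rule, 55 members held exactly 2 of the 7 marker genes, and 39 of these (70.9%) had a UMI of Ptprc, the pan-leukocyte phosphatase CD45, which the rule did not use. Just outside, 381 nuclei held 1 marker gene, and 71 of them (18.6%) had a Ptprc UMI. A further 40 nuclei held 2 or more markers with over 1 exclusion UMI, 10 of them with exactly 2. Among the members 56 held 3 markers, 38 held 4, 27 held 5, 8 held 6 and 1 held all 7.

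In a clustering of all kept nuclei, 161 members (87.0%) fell into 1 cluster of 224 nuclei with Gm2682, Skap1, Themis, Clnk and Gimap3 among its leading genes. Of the other 24 members 8 fell into a cluster led by the neuronal genes Nrg3 and Lrrtm4, and the rest lay at 1 to 3 per cluster, while the 63 further nuclei of that cluster were mostly nuclei with 1 marker (42). Ptprc was seen in 155 of the 185 members (83.8%) and in 5.83% of the other nuclei. With every nucleus thinned to 1000 UMIs, which left out 19 members and 825 other nuclei, the share was 62.7% in members, 2.82% in other nuclei and 0.286% in the largest cluster. That cluster of 5593 nuclei, led by genes such as Plpp4 and Elovl5 and with a median of 6290 UMIs, should lack lymphocyte genes and serves below as the background from free RNA.

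Of the 20166 genes with at least 20 UMIs over all kept nuclei, 1972 (9.78%) had a CPM at least 4-fold higher in the members than in all other nuclei. The members include 8 nuclei led by neuronal genes, described below as subcluster 7. With only the 161 members in the cluster of 224 nuclei, which holds none of those 8, the count was 1152. The same nuclei define the groups and give these values, so they describe the members and were not tested. Skap1, an adaptor of the receptor's adhesion signal, had 723 UMIs in 167 members. Themis, a T cell development protein, had 245 UMIs in 92 members, Bcl11b, a T lineage transcription factor, 169 in 104, and Cd247, the receptor's zeta chain, 162 in 93. Il7r, the interleukin 7 receptor, had 179 UMIs in 74 members, Cd3g 60 in 50 and Cd3e 48 in 40. The ratio of CPM in members to CPM in other nuclei ran from 101.7 for Bcl11b to 511 for Themis, as the rule requires of the group that it selects.

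Outside the rule, genes of the receptor pathway were high. In the list of 24 T cell receptor signalling genes, 22 were at least 4-fold higher and none 4-fold lower, with a median log2 ratio of 5.82 against 0.23 over all genes tested. Lck, which phosphorylates the CD3 chains, had 166 CPM (95% Poisson interval 139 to 196) in members and 0.967 CPM in other nuclei, and Zap70, the kinase recruited to them, 25.1 CPM (15.3 to 38.7) against 0.178 CPM. The intervals cover counting error only. Lck was uneven among the subclusters of the members described below. It was at 83.6 CPM in subcluster 2 and at 454, 743, 0 and 485 CPM in subclusters 3 to 6. Trbc1 and Trbc2, the constant segments of the receptor's beta chain, are near-identical copies whose reads can be split, and their UMIs were in 43 and 32 members. The plot of thinned shares gives 24 genes with a large CPM ratio at equal depth.

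**Figure D1:**
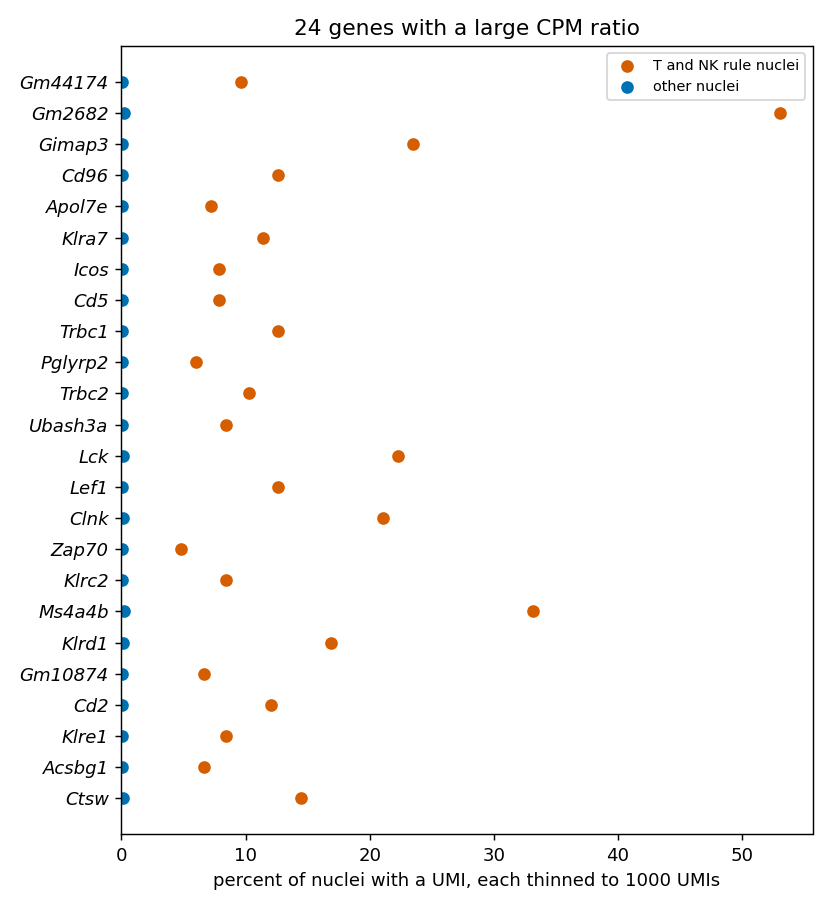
Percent of nuclei with at least 1 UMI (x axis), each nucleus thinned to 1000 UMIs, for 24 of the 25 genes outside the rule with the largest CPM ratio among genes seen in at least 10% of members (y axis, ordered by that ratio). Members, in orange, reach 53.0% for Gm2682 and 33.1% for Ms4a4b, while the other nuclei, in blue, are at 0.222% and 0.181%.

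Genes of leukocytes in general and of killing were also high. In the pan-leukocyte list 7 of 10 genes passed 4-fold, with Arhgap15, a GTPase-activating protein, in 164 members and Dock2, which drives lymphocyte migration, in 148. In the cytotoxic T list all 8 genes tested passed, with Runx3, the transcription factor of the cytotoxic programme, in 59 members, Ccl5 in 34 and Tbx21 in 23. Summed over all members Runx3 was at 133 CPM, in 31.9% of them. The cluster with Klra2 as its leading gene had 140 CPM, with Runx3 in 42.7% of nuclei. These percents compare unlike depths, with medians of 1761 UMIs in members and 3421 in that cluster. The sum also mixes unlike members. In the subclusters of the members described below, Runx3 was at 360, 352, 118 and 755 CPM in subclusters 3 to 6. It was at 123, 55.7 and 0 CPM in subclusters 1, 2 and 7. In the NK list 14 of 15 tested genes passed, with Txk in 56 members, Klrk1, which encodes the activating receptor NKG2D, in 41, and Klrd1, which encodes CD94, in 40. Klra7, Klrc2 and Klre1 belong to families of close copies, so counts of single members of these families are uncertain.

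Genes of residency and homing passed in 11 of 15 cases. Itga4, an integrin chain that binds vascular adhesion molecules, was in 88 members, Itgal, a chain of LFA-1, in 54 and Itgb7 in 46. In the naive and central memory list 6 of 9 genes passed: Lef1 was in 44 members and Tcf7 in 33. Tox, a nuclear factor of chronically stimulated and innate-like lymphocytes, was in 103 members and Cd96, an inhibitory receptor, in 40, within a list of 9 inhibitory genes of which 4 of 7 tested passed.

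Cytokine and effector messages were sparse but raised: 6 of 8 tested genes of this list passed 4-fold, and 55 members had a UMI of any of its 14 genes. Il10, Il21 and Il22 had no UMI in any member, while Fasl, the death ligand, was seen in 13 members and Xcl1 in 5. A count of 0 in 185 nuclei allows a share with a UMI of up to about 1.62%. This approximate limit is 3 divided by the number of nuclei, unless an exact interval is named. It limits detection at this depth and not expression, here and for the other counts of 0 below. Lag3 in the inhibitory list, Il17a in the gamma-delta list, and Il5, Il13 and Areg in the innate lymphoid list were also at 0. Stat4, which carries the interleukin 12 signal, was in 81 members, at 157 CPM against 1.54 CPM. Jak1, Stat3 and Stat5b, general carriers of cytokine signals, were at 457, 433 and 477 CPM in members and 269, 427 and 547 CPM in other nuclei.

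Hormone response genes of the lactating gland were not raised. None of the 8 glucocorticoid and prolactin response genes passed 4-fold in either direction (median log2 ratio -0.12), with Nr3c1, the glucocorticoid receptor, at 374 CPM against 357 and Fkbp5, its target, at 354 CPM against 391. These sums mix unlike members. Fkbp5 was at 490 CPM in subcluster 2 and at 219, 137, 296 and 270 CPM in subclusters 3 to 6. Nr3c1 was at 420 CPM in subcluster 2 and at 517, 274, 473 and 539 CPM in subclusters 3 to 6. Prlr, the prolactin receptor, was in 43 members, and the thinned shares were 10.8% in members, 16.8% in other nuclei and 23.4% in the largest cluster. Of the 43 members with a Prlr UMI, 32 were in subcluster 2 of the members described below, which carries secretory genes, and 3, 1, 1 and 1 in subclusters 3 to 6.

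Milk protein RNA was present in every member. Csn2, the beta-casein gene, had UMIs in 185 of 185 members, and the 8 milk protein genes took 13.7% of the members' UMIs against 14.8% in other nuclei. Of the 11 secretory luminal genes none passed 4-fold, and their sum was 17494 CPM in members and 25842 CPM in other nuclei. That sum was uneven among the members: 26473 CPM in subcluster 2 and 16834 CPM in subcluster 1, but 3015 to 3679 CPM in subclusters 3 to 6, where milk protein genes took 19.2% to 22.3% of UMIs. Of the 8 macrophage markers, Mrc1, Cd163 and Cd68 were at 0 and 33 members had a UMI of any. Of the 9 B cell markers, Pax5 and Bank1 were at 0 and 45 members had a UMI of any. At least 4-fold higher were 0 of 8 macrophage and 1 of 8 tested B cell genes. The same held for 4 of 7 tested dendritic, 2 of 9 plasma cell and 2 of 4 mast cell genes. A UMI of any gene of these last 3 lists was in 28, 100 and 3 members. The part of these other transcripts in the values of the members was not tested.

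Coreceptors, which separate helper from cytotoxic T cells, were rarely captured. Cd4 was seen in 12 members (6.49%, exact 95% interval 3.40 to 11.1%) and Cd8a or Cd8b1 in 18 (9.73%, 5.87 to 14.9%). No member had both (upper end of the exact 95% interval 1.97%), and 155 had neither. At 1000 UMIs Cd4 was in 4.22% of members and 0.0655% of other nuclei, Cd8a in 3.61% and none, and neither had a UMI in the largest cluster. Foxp3, the regulatory T cell factor, was in 2 members. At least 2 NK list genes were seen in 60 members (32.4%, 25.7 to 39.7%), and 27 of these also had a UMI of Cd3d, Cd3e or Cd3g, which 80 members (43.2%) had in all. Cd3e and Cd3g are genes of the rule, so these CD3 counts depend partly on how members were chosen. Gata3, a factor of innate and helper lymphocytes, was also seen outside the members: its thinned share was 12.8% in the largest cluster, against 10.2% in members. Among the members it was in 25 of 47 nuclei of the deeper subcluster 2. In subclusters 3 to 6 it was in 8 of 43, 4 of 36, 2 of 12 and 4 of 23. The source of Gata3 in the largest cluster was not tested, so that cluster is not taken as a background for this gene.

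Clustering the members alone gave 7 subclusters, which differed in genes, depth and hashtag call. The genes that lead them were used to form them, so their values are a description. Subcluster 3 (43 nuclei) was led by Slamf6, Icos, Cd5, Ubash3a, Trbc1 and Themis and is T cell-like. Icos, a costimulatory receptor, was in 14 of its nuclei and Themis in 35. Subcluster 4 (36 nuclei) was led by Lef1 (17 nuclei), Satb1 (20) and Tcf7 (12), transcription factors of the naive and central memory list, with Themis in 64% of its nuclei. Its T cell receptor signalling list summed to 7683 CPM, against 7091 CPM in subcluster 3 and 5634 CPM in subcluster 6. That list was thus also high in subcluster 6, named NK cell-like below, and does not by itself separate T from NK cells. Klrd1 was in 10 of the 36 nuclei of subcluster 4, Klrk1 in 9, and Klra7 and Klre1 in 5 each. Themis is a gene of the rule, so subcluster 4 is called T cell-like only tentatively. The naive and central memory list was not among those fixed for naming classes, so no naive or memory name is given.

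Subcluster 5 (12 nuclei) is gamma-delta T cell-like. Blk, a Src-family kinase, was in 11 of 12 nuclei, Scart1 in 11, Il23r, the interleukin 23 receptor, in 10 and Trdc, the delta chain constant segment, in 4. Themis had no UMI in the 12, which allows a share with a UMI of up to 25%, and Il7r was in 83% of them. Its gamma-delta list summed to 4966 CPM, against 0 in subclusters 3 and 4.

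Subcluster 6 (23 nuclei) is NK cell-like. Klrd1 was in 15 of its nuclei, Cd244a in 17, Klra7 in 11, Klre1 in 10, Ncr1, the NK receptor NKp46, in 7, and the granzymes Gzmb and Gzma in 7 and 6. Themis was in 1 nucleus and Cd4 had no UMI, which allows up to 13.04%. Cd3g was in 34.8% and Cd3e in 21.7% of the nuclei, against 30.2% and 20.9% in the T cell-like subcluster 3. Both are genes of the rule, so these shares depend partly on how members were chosen and do not compare the subclusters. Cd3d, outside the rule, was in 2 of 23 nuclei of subcluster 6 and 3 of 43 of subcluster 3. Its NK list summed to 5418 CPM, against 454 CPM in subcluster 3 and 1740 CPM in subcluster 4.

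**Figure D2:**
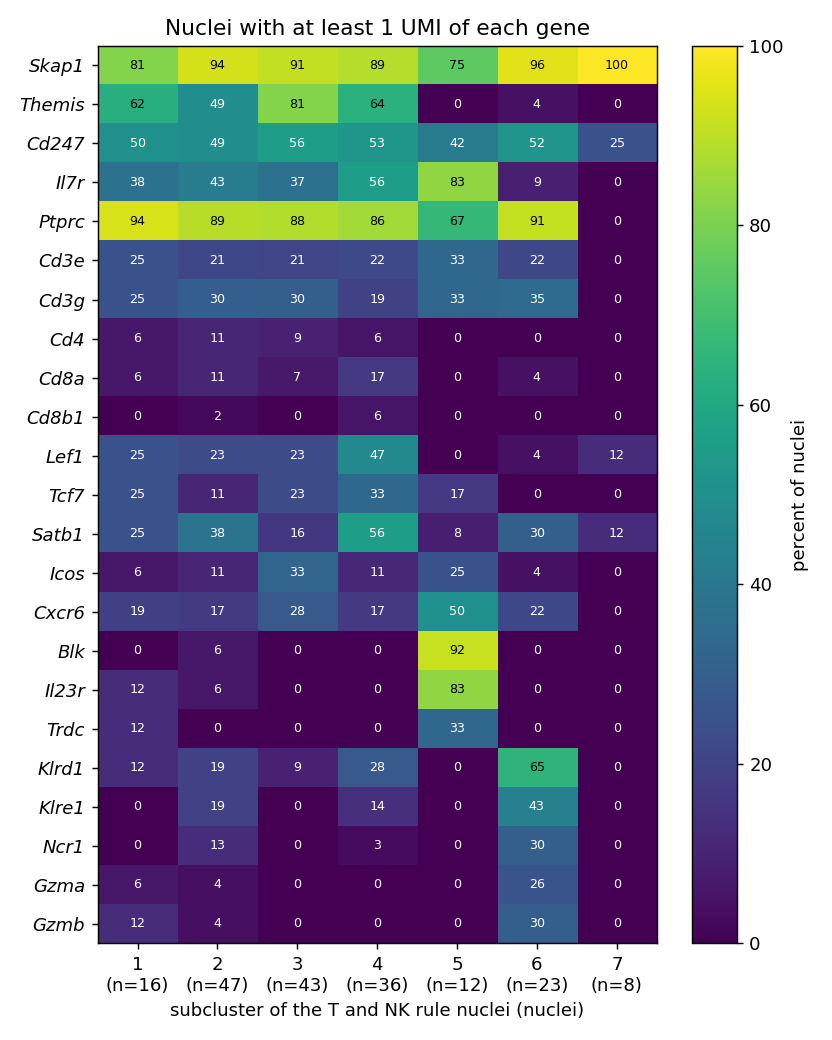
Percent of nuclei with at least 1 UMI (colour and printed number) for 23 genes (rows) in the 7 subclusters of the members (columns, with their numbers of nuclei). Blk and Il23r peak in subcluster 5 and Klrd1, Klre1, Gzma and Gzmb in subcluster 6, while Ptprc is at 0 in subcluster 7.

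The other 3 subclusters carried genes of other cells and stay unnamed. Subcluster 2 (47 nuclei, median 7033 UMIs) was led by Tfap2a, Tnk1, Klf15 and Barx2, its secretory luminal list summed to 26473 CPM against 3679 CPM in subcluster 3, and 16 of its nuclei (34.0%) had more than 1 hashtag. Subcluster 1 (16 nuclei, median 4250 UMIs) was led by the stromal and contractile genes Cald1, Myh11 and Ebf1. Ptprc was nevertheless in 42 nuclei of subcluster 2 and in 15 of subcluster 1. Subcluster 7 (8 nuclei, median 9389 UMIs) was led by the neuronal genes Tenm2, Nrg3 and Nlgn1, had no Ptprc UMI, which allows up to 37.5%, and held all 6 members tagged with the unnamed sample plus 2 with more than 1 hashtag. Its nuclei met the rule through Skap1, in all 8, with Bcl11b or Cd247, so the label of T and NK cells does not describe them.

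Subclusters 3 to 6 together held 114 members with a median of 1422 UMIs, of which 75 (65.8%) had no hashtag. Cd4 was in 6 of these (5.26%), Cd8a or Cd8b1 in 11 (9.65%) and 2 or more NK genes in 41 (35.96%), close to the shares over all members.

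**Figure D3:**
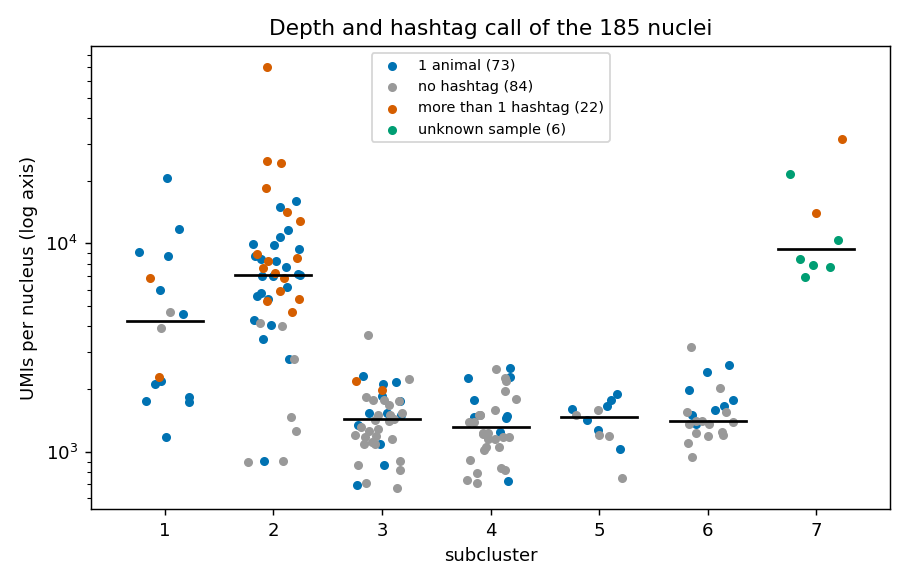
UMIs per nucleus (y axis, log scale) of the 185 members by subcluster (x axis), coloured by hashtag call, with a bar at each median. Subclusters 3 to 6 have medians from 1323 to 1467 UMIs and many nuclei without a hashtag, and subclusters 1, 2 and 7 are deeper, with 20 of the 22 nuclei of more than 1 hashtag.

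The members were then compared between genotypes. The share of members among the singlet nuclei (nuclei with 1 hashtag) was 0.183%, 0.542%, 0.358% and 0.509% in WT animals 1 to 4, from 3, 9, 7 and 7 members. It was 0.497%, 0.789%, 1.22% and 0.569% in KO animals 1 to 4, from 10, 13, 16 and 8 members. The groups overlapped, since KO animal 1 lay below WT animals 2 and 4. The means were 0.398% ± 0.164 (SD, n = 4) in WT and 0.769% ± 0.326 (SD, n = 4) in KO, a difference of 0.371 percentage points that did not pass the two-sided exact permutation test (p = 0.0857, adjusted over the 6 genotype tests by Benjamini-Hochberg 0.514). The smallest p this design allows is 0.0286. With at least 3 of the 7 markers required, the difference was 0.436 points (unadjusted exact permutation p = 0.0286), and without KO animal 1 it was 0.461 points (unadjusted exact permutation p = 0.0286), in each case the smallest p possible. Without KO animal 3, which had the highest share, the difference was 0.220 points (exact permutation p = 0.171), and without subclusters 1, 2 and 7 it was 0.267 points (exact permutation p = 0.171). A share of nuclei cannot tell more T and NK cells from fewer other nuclei, and the largest cluster itself ranged from 8.58% to 62.5% of singlets in WT animals and from 23.2% to 30.2% in KO animals. With only singlets holding a Ptprc UMI as the denominator, the share was 8.01% ± 2.50 in WT and 13.5% ± 5.15 in KO (SD, n = 4). That difference of 5.48 points did not pass either (unadjusted exact permutation p = 0.0571).

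**Figure D4:**
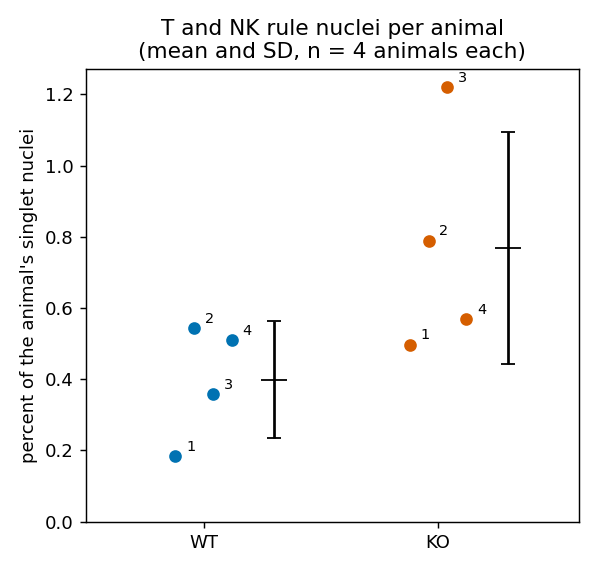
Members as a percent of the singlet nuclei of each animal (y axis, from 0) for WT and KO animals (x axis). Points are animals with their replicate number, and the black mark and bar are the mean and SD of 4 animals, 0.398% ± 0.164 in WT and 0.769% ± 0.326 in KO.

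No difference in the make-up of the members between genotypes passed the test. The share with 2 or more NK genes was 33.3%, 33.3%, 71.4% and 57.1% in WT animals 1 to 4 and 30%, 53.8%, 25% and 25% in KO animals 1 to 4 (means 48.8% ± 18.8 and 33.5% ± 13.8, SD, n = 4, exact permutation p = 0.171, adjusted 0.514). Cd4 was in 2 of 26 WT members and 4 of 47 KO members (exact permutation test over animals, p = 0.83, adjusted 0.943). Cd8a or Cd8b1 was in 1 WT member and 4 KO members (exact permutation p = 0.371, adjusted 0.743). Median UMIs per member (3715 ± 2601 and 2762 ± 1427, SD, n = 4, exact permutation p = 0.686) and the share of milk protein UMIs (13.6% ± 2.25 and 13.8% ± 2.36, SD, n = 4, exact permutation p = 0.943) gave adjusted values of 0.943. By subcluster, 7, 8, 2 and 2 WT members and 5, 16, 11 and 7 KO members were in subclusters 1 to 4. Subclusters 5 and 6 held 3 and 4 WT members and 4 and 4 KO members. These counts pool the animals of each genotype, so they do not compare animals, and their spread was not tested. With 3 to 16 members an animal, only large differences could be seen.

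Across genes, sums per animal were compared with edgeR's quasi-likelihood test in the 3 WT and 4 KO animals with at least 5 members, so WT animal 1 was dropped. None of the 778 genes tested (0%) passed an adjusted p of 0.05, although 23 had an unadjusted p under 0.05. DESeq2 also called none, and 12 had an unadjusted p under 0.05. The sums per animal include subclusters 1 and 2, which carried genes of other cells at medians of 4250 and 7033 UMIs. The medians of subclusters 3 to 6 ran from 1323 to 1467 UMIs. Of the 11 secretory luminal genes 10 were among the genes tested. The fit therefore does not describe T and NK cells alone. The smallest p was that of Itprid1, with 55, 27 and 11 UMIs in WT animals 2 to 4 and 18, 14, 3 and 1 UMIs in KO animals 1 to 4 (log2 difference -2.05 ± 0.49 SE, edgeR adjusted p = 0.509). Next came Il7r, with 2, 0 and 5 UMIs in those WT animals and 12, 14, 33 and 20 UMIs in the KO animals (log2 difference 2.72 ± 0.81 SE, edgeR adjusted p = 0.998). These are raw UMIs, and the totals over members ran from 16638 UMIs in WT animal 4 to 63809 in KO animal 1. The raw counts therefore do not show that the groups separate. Il7r is also a gene of the rule, and its difference did not pass. Nucb2, Nt5c2, Nampt and Tmem87a (log2 differences 1.39, 1.57, 1.38 and 1.71) and Slc1a3, Csnk1g3, Stox2 and Lpp (-1.21, -1.44, -1.34 and -0.82) complete the 10 smallest p, each with an edgeR adjusted p of 0.998.

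By list, 5 of 24 receptor signalling genes could be tested, namely Prkcq, Grap2, Ptpn22, Lck and Fyn, with a median log2 difference of 0.38 and none called. Of the pan-leukocyte list 6 genes were tested (median 0.47, none called), and of the 8 milk protein genes all 8 (median -0.07, none called), against a median of 0.01 over all 778 genes. No gene of the cytotoxic, NK or gamma-delta lists had enough UMIs to be tested, so a genotype difference in them was not detectable at this depth.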

How the data were processed

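Single-nucleus RNA and hashtag libraries of 8 pooled animals were deposited. The authors' files hold raw UMI counts per gene and barcode, and counts per hashtag. Per the submitters' processing notes these come from fastp and Cell Ranger 7.2.0 with build GRCm39. Hashtags were assigned with HTODemux (Seurat 5.3.0, R 4.3.3) on centred log ratios across barcodes, at a positive quantile of 0.99, with 9 of the 10 hashtags. The hashtag named Unknown_sample1 was left out. No doublet caller was run beyond the hashtags, so doublets of the same animal remain. Nuclei were clustered with scanpy 1.11.5 (Leiden resolution 0.5 for all nuclei and 0.8 for the members). CPM is the summed UMIs of a gene over all UMIs of the same nuclei, scaled to 1e6. The animal was the unit of replication in every test. Genotypes were compared by exact permutation of animals and, on sums per animal with TMM scaling, by edgeR 4.0.16 with Benjamini-Hochberg adjustment. DESeq2 1.42.0 was an alternative, as were other hashtag rules, member rules and filters. The edgeR step was tested on simulated data.

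Named genes are the 7 rule markers, up to 4 genes of each list seen in most members, subgroup genes, the 25 largest CPM ratios among genes seen in at least 10% of members, the 10 smallest genotype p-values and the leading 10 of each subcluster. Members and lists were chosen with earlier results of these data known. Of 278 list genes, 274 had a symbol in the files. No genome was used, so no coordinates or sequences are given. Some genes that this rule names are not reported here.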

Additional observations from a re-analysis of the deposited data

Results flagged for a closer look

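Among 12 sets of 4 values (6 measures in each genotype), 2 held an animal far from the other 3. Chance alone flags about 1 in 20 where values are continuous and normally distributed, which shares from a few nuclei are not. WT animal 2 had Cd8a or Cd8b1 in 11.1% of its members, which is 1 of 9, and the other 3 WT animals had none. With the others at 0, that single nucleus was enough to set the flag. KO animal 1 had a median of 4879 UMIs per member, above the other 3 KO animals. Members were also found in nuclei that no genotype comparison uses: 6 of 267 nuclei with the tag of the unnamed sample (2.25%, exact 95% interval 0.83 to 4.83%) and 84 of 5570 nuclei with no hashtag (1.51%, 1.205 to 1.86%). These intervals cover counting error only. The shares per animal ran from 0.183% to 0.542% in WT and from 0.497% to 1.22% in KO. All 6 members with the tag of the unnamed sample lie in the subcluster led by neuronal genes, and none is in the T and NK cluster.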

How the results depend on the processing

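The KO minus WT difference in the share of members stayed positive under every alternative run, from 0.220 to 0.461 percentage points when 1 animal was left out. It passed the exact permutation test when at least 3 of the 7 markers were required (0.436 points) and without KO animal 1. The ratio rule for hashtags gave 0.909 points. Differences in make-up, none of which passed a test, changed sign as follows. For Cd4 (1.82 points in the main comparison) the difference was -0.0229 points with centred log ratios within barcodes, -2.71 for members that also fall in the T and NK cluster and -3.71 for all nuclei of that cluster, and it ran from -0.29 to 4.55 with 1 animal left out. For Cd8a or Cd8b1 it was -2.85 points with all 10 hashtags. For 2 or more NK genes (-15.3 points) it was 4.48 points with at least 3 markers. Median UMIs differed by 416 for all nuclei of the T and NK cluster, and by -1716 to 143 with 1 animal left out. The milk protein share (0.183 points) differed by -1.22 with the ratio rule, -0.0249 at a minimum of 1000 UMIs, -1.46 with 0 UMIs of the exclusion genes, -0.320 for members in the T and NK cluster, -0.265 for all nuclei of that cluster, -3.20 without subclusters 1, 2 and 7, and -0.561 to 1.34 with 1 animal left out. The cause of these changes was not tested.

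Genes changed with genotype numbered 0 in the comparison as reported, 2 with all 10 hashtags (Itprid1 and Themis, among 275 tested), 4 with no filter on low counts (Gm30211, Csmd1, Ebf1 and Il7r, among 13918) and 3 with a replicate block (Itprid1, Slc28a3 and Il7r). Themis and Il7r are genes of the rule that chose the members, so their calls rest partly on values the rule used. With 1 animal left out the count was 0 in all 7 fits. Same-numbered animals share only a number in the labels. Across the 778 genes their deviations from the group means correlated at -0.33, 0.11, -0.06 and 0.08, and not every animal correlated best with its own number. With the replicate block the share difference had an exact sign-flip permutation p of 0.125, the smallest possible with 4 pairs. Fits with at least 10 members per animal, the ratio rule, centred log ratios within barcodes, at least 3 markers, 0 exclusion UMIs or without subclusters 1, 2 and 7 left too few animals and were not run.

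The 1972 genes at least 4-fold higher became 1186 with at least 3 markers, 1115 with a Ptprc UMI required, 1152 for members in the T and NK cluster and 1164 at 1000 UMIs per nucleus. The members formed 5 subclusters at resolution 0.4 and 8 at 1.2; at 1.2 all 12 gamma-delta-like nuclei and 21 of the 23 NK-like nuclei stayed in 1 subcluster each. Alternatives on the T and NK cluster, on subclusters 1, 2 and 7 and on the resolution were chosen after seeing the data.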
